A study of Mus musculus with 24 samples.

Results

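The extracellular matrix genes described here comprised collagens, laminins, matrix glycoproteins, small proteoglycans, matrix-cleaving proteases with their inhibitors, and integrins. They were chosen by symbol: every symbol of the array that starts with the name of a collagen chain, a laminin chain, an integrin chain, *Mmp*, *Timp* or *Adamts*, together with *Fn1*, *Sparc*, *Dcn*, *Bgn*, *Lum*, *Postn*, *Nid1*, *Nid2*, *Hspg2*, *Lox*, *Fbn1* and *Eln*. This gave 81 genes, represented by 130 cDNA clones, out of 9030 symbols and 20794 clones. *Lum*, *Nid1*, *Hspg2*, *Fbn1* and the laminin chain *Lama2* had no clone that the annotation used here names, so the list has gaps in the small proteoglycans and in the basement membrane. The rule also took in *Adamtsl4*, which codes for an ADAMTS-like protein without the protease domain, and *Itgb1bp2* and *Itgb3bp*, which code for integrin-binding proteins and not for integrin chains.

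Male *Eya3*-/- mice (4 animals) gave RNA from the brain, the heart and skeletal muscle, which was hybridised to glass cDNA arrays with 2 colours, each time against pooled wild-type RNA of the same organ, with 2 arrays of exchanged dyes per mouse and organ, 8 arrays per organ and 24 in all. The mutants carry the gene trap vector pT1βgeo in an intron of *Eya3* in every cell. They descend from Sv129S2 embryonic stem cells crossed to C57BL/6 over several generations, so the background is mainly C57BL/6, and the pooled controls were wild-type littermates. The sample labels give an age of 13 weeks. The labels and the methods differ on how many animals the pool held, and the range of animal numbers given for it takes in the numbers of a pair of mutant mice, so the make-up of the pool is not certain. The mice are called W, X, Y and Z here, in the order of their animal numbers. Values are log2 ratios, likely of mutant over wild-type pool, since the direction is not stated: a value of 1 is an increase by a factor of 2 and a value of -1 is a decrease by that factor. Because the pool is a single control sample, every p-value measures the spread between mutant mice and leaves out that between wild-type mice. In whole organs, fewer cells of a type and less RNA per cell cannot be told apart.

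Collagens and laminins are secreted as chains that assemble into fibrils and sheets, and integrins on the cell surface bind to them. Fibrillar collagens give tissue its tensile strength, whereas type IV collagens and laminins form the basement membrane around muscle fibres, heart muscle cells and vessels. Matrix metalloproteinases (MMPs) and ADAMTS proteases cut these proteins, and tissue inhibitors of metalloproteinases (TIMPs) hold the MMPs in check.

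The arrays lacked values for 4.75% to 24.5% of their clones, and the array medians lay between -0.26 and 0.14. Over all clones, the dye-swapped arrays of a mouse correlated with a median r of -0.03 (brain), -0.06 (heart) and -0.04 (muscle). The ratios of single clones were thus not repeatable between dyes. Arrays of different mice in the same dye orientation correlated with a median r of 0.05 (brain), 0.05 (heart) and 0.03 (muscle). Clones are not independent replicates, and none of these correlations was under -0.3. The single *Eya3* clone had values on 4 arrays of brain, 6 of heart and 3 of muscle, between -3.32 and 2.79, and 3, 2 and 1 of these were below 0. The position of this clone relative to the trapped intron is not stated in these sources, so it checks no label. Ratios against a pool of the same organ also cannot show from which organ a sample came.

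A gene was tested in an organ when at least 3 of the 4 mice had values on both arrays. Of the 81 matrix genes, 62 met this in brain, 70 in heart and 68 in muscle. Altogether, 53 genes were tested in 3 organs, 16 in 2, 9 in 1, and 3 (*Adamts4*, *Mmp3* and *Itga11*) in none. After limma and Benjamini-Hochberg adjustment over the whole table (13446, 13775 and 13024 rows), 0 matrix genes passed an adjusted p under 0.10 in any organ. The share of all rows that passed was 0% in each organ. The matrix gene with the lowest adjusted p reached 0.524 in brain, 0.814 in heart and only 0.953 in muscle (limma). One-class SAM on the same values, the method named in the study, called 0 matrix genes as well. The SAM count over all rows is not given here, so this 0 has no background beside it. With 4 mice there are 16 sign flips, and the smallest exact two-sided sign-flip p of a single gene is 0.125.

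At an unadjusted limma p under 0.05, 5 matrix genes were lower and 1 was higher in brain, where 3.79% of all rows were lower and 5.33% higher at that limit. In heart 1 was lower and 1 higher (background 2.78% and 2.29%), and in muscle 3 were lower and 1 higher (1.34% and 2.1%). In each organ these were few genes, and their names are given below with their values. The mean ratios of the matrix genes were centred like those of all symbols. In brain their median was -0.03 (-0.04 over all 7392 symbols tested), in heart 0.02 (0.03 over 7558) and in muscle 0.02 (0.01 over 7216). Of the tested matrix genes 35 of 62 (56.5%) lay below 0 in brain against 55.1% of all symbols, 33 of 70 (47.1%) in heart against 46.3%, and 33 of 68 (48.5%) in muscle against 48.2%.

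**Figure D1:**
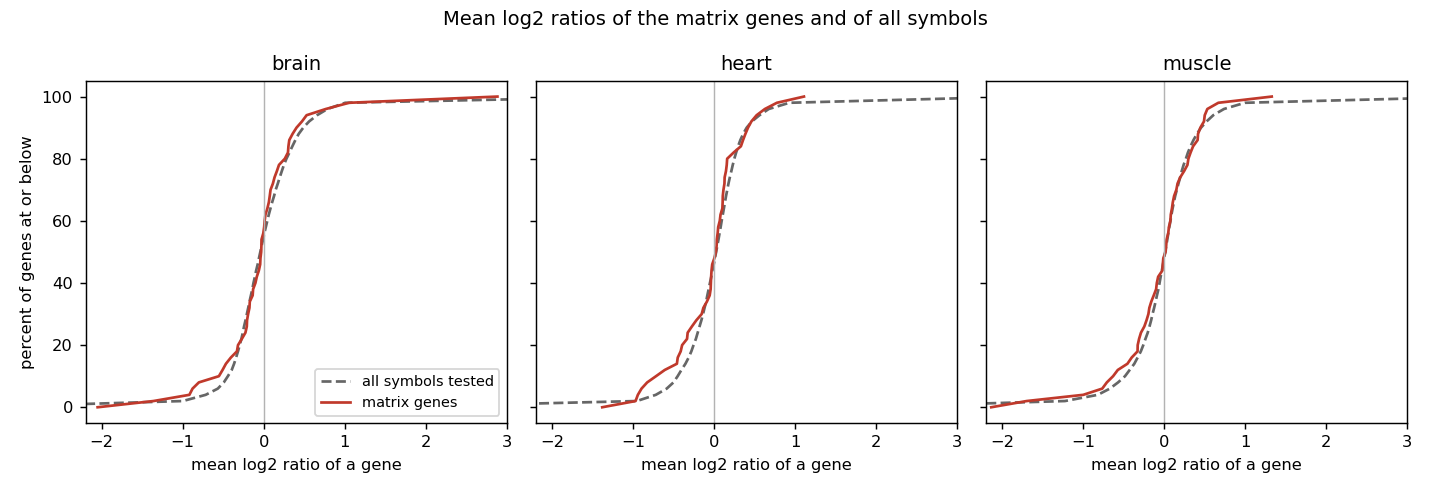
Cumulative distribution of the mean log2 ratio per gene (x axis) in each organ, with the percent of genes at or below that value on the y axis, for the matrix genes (solid red) and for all symbols tested (dashed grey). Both curves cross 50% within 0.05 of 0 in the 3 organs and part most in the lower tail, where the value at percentile 10 was lower for the matrix genes in brain (-0.55 against -0.44), heart (-0.72 against -0.45) and muscle (-0.63 against -0.48). The tails of all symbols run past the axis.

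The mice spread somewhat more in the matrix genes than in the typical symbol, as a description with no test. The median SD between mice was 0.51 in brain against 0.41 over all symbols, 0.56 against 0.42 in heart, and 0.56 against 0.50 in muscle. The 95% confidence interval from limma stayed within 1 log2 unit on either side of 0 for 41 of 62 matrix genes in brain (66.1%, against 66.2% of all symbols), 39 of 70 in heart (55.7% against 66.1%) and 35 of 68 in muscle (51.5% against 55.8%). These shares depend on the mean as well as on the width of the interval. The median half-width was 0.62 for the matrix genes in brain against 0.55 for all symbols. It was 0.66 against 0.57 in heart and 0.70 against 0.68 in muscle. For the genes whose interval passed 1 log2 unit, a change by a factor of 2 in at least 1 direction lay within the interval.

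**Figure D2:**
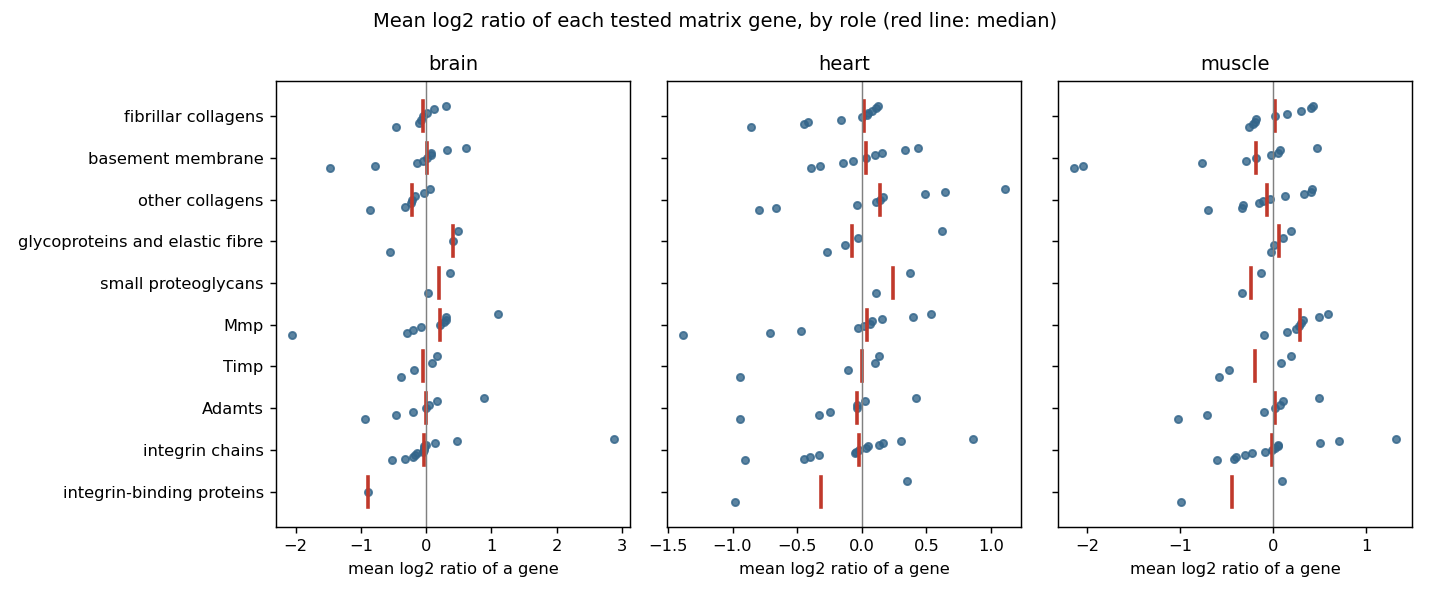
Mean log2 ratio over the mice (x axis) of every matrix gene tested in brain, heart and muscle, 1 point per gene, grouped by role, with the median of each group as a red line. The x axes differ between organs. Most groups have their median within 0.3 of 0, and the points farthest from 0 (*Itgb2* in brain, *Mmp8* in heart, *Lamb1* in muscle) belong to genes with a large spread between mice.

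In brain, the collagen-binding glycoprotein *Sparc* (also known as osteonectin) and the fibrillar collagen *Col3a1* were below the pool in all 4 mice. *Sparc* had log2 ratios of -0.37 in mouse W, -0.47 in X, -0.79 in Y and -0.59 in Z. All 4 mice thus lay on one side, with a mean of -0.56 ± 0.18 (SD, n = 4), a 95% interval of -0.94 to -0.17 and an adjusted p of 0.524 (limma). The gene was represented by 3 clones, and the mean over its clones was below 0 on all 8 arrays. It was the only matrix gene on one side of 0 on all 8 arrays of an organ, a pattern that 3.54% of all symbols with values on all 8 arrays showed in brain.

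The clones of *Sparc* gave brain means of -0.72, -0.41 and -0.54. The last of these clones was below 0 on 8 of 8 arrays, between -0.07 and -0.93, while the others were below 0 on 6 of 8. With the mutant in Cy5 the gene averaged -0.40, and with the mutant in Cy3 it averaged -0.71. In heart the same gene had -0.05 in W, 0.19 in X, 2.40 in Y and -0.05 in Z. The high value of mouse Y came from a single spot with a log2 ratio of 16.6 on 1 array. The heart mean was 0.62 with this spot and 0.03 with values beyond 10 treated as missing. In muscle *Sparc* averaged -0.02 ± 0.33 (SD, n = 4), with mice on both sides of 0.

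**Figure D3:**
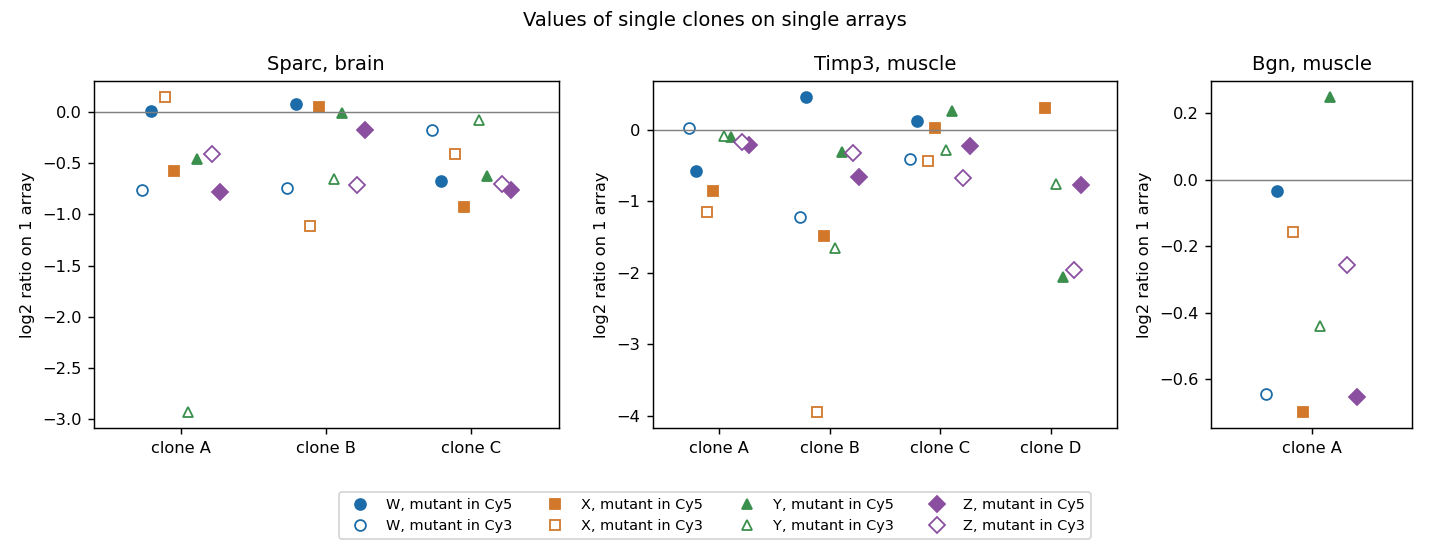
Log2 ratios (y axis) of single clones of *Sparc* in brain, *Timp3* in muscle and *Bgn* in muscle, with 1 point per array, marker shape and colour for the mouse, filled points for the mutant in Cy5 and open points for the mutant in Cy3. Clone C of *Sparc* lies below 0 on all 8 arrays, whereas clones A and B of *Sparc* and every clone of *Timp3* and *Bgn* have at least 1 array above 0.

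As examples of genes below 0 in all 4 mice and on at least 7 of 8 arrays of an organ, the sequences around the start sites of *Sparc* (brain), *Timp3* and *Bgn* (both muscle) are shown here, a choice made after their values were seen. They are RefSeq windows of build GRCm38.p6 from 250 bases before to 50 bases after the start of the gene, which 53 of the 81 matrix genes have, and run 5′ to 3′ on the strand of the gene. Capitals mark matches, on either strand, to any of 5 short motifs: the TATA box TATAAA, the CCAAT box CCAAT, the GC box GGGCGG, the AP-1 site TGAGTCA and the Smad element CAGACA. They were found in 13.6%, 37.4%, 35.7%, 5.20% and 21.0% of the 32851 windows of that length. The *Sparc* window lies at chr11:55420031-55420330 on the minus strand, that of *Timp3* at chr10:86300162-86300461 on the plus strand and that of *Bgn* at chrX:73483351-73483650 on the plus strand.
Sparc: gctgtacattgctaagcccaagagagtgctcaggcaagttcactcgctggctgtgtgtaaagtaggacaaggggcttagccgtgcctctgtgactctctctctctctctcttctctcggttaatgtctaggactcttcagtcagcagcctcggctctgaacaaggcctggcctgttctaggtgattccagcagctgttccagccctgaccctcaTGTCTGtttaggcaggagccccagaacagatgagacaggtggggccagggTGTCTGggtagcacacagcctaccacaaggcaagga
Timp3: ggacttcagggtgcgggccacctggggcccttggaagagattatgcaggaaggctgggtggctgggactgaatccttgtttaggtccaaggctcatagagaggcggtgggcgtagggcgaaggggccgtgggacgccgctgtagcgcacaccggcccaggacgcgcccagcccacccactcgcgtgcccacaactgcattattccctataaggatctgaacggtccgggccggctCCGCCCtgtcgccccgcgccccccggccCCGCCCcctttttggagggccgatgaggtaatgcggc
Bgn: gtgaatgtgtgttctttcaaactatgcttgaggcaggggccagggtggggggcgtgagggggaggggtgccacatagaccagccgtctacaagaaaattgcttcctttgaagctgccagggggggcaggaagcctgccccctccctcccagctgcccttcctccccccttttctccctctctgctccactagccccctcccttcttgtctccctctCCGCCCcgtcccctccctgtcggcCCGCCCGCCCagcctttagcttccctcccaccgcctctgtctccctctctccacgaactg
The *Sparc* window held 2 matches to the Smad element and none to the other motifs. The windows of *Timp3* and *Bgn* held 2 and 3 matches to the GC box, of which a pair overlap in *Bgn*, and none to the other motifs. The 3 windows shared no motif across all of them, and a match is a description of letters and not of a bound site.

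*Col3a1*, which forms fibrils together with type I collagen in vessel walls and soft tissue, had brain ratios of -0.48 in W, -0.56 in X, -0.44 in Y and -0.37 in Z. The mice lay close together and all below 0, with a mean of -0.46 ± 0.08 (SD, n = 4), a 95% interval of -0.81 to -0.12 and an adjusted p of 0.524 (limma). The single clone was below 0 on 6 of 8 arrays. In heart the gene was near the pool (0.13 ± 0.28, 3 of 4 mice above 0). In muscle it averaged -0.26 ± 0.32 and was below 0 on 7 of 8 arrays, although mouse W was at 0.02.

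The type I collagen chains, which are the main fibril collagen of most organs, did not follow *Col3a1* in brain. *Col1a1* had -0.57 in W, -0.61 in X, 0.36 in Y and 0.49 in Z, and *Col1a2* ranged from -0.12 to 0.26 between mice, so both genes had mice on either side of 0. In heart *Col1a1* averaged -0.16 ± 0.34 and *Col1a2* 0.08 ± 0.47 (SD, n = 4), again with mice on both sides. In muscle *Col1a2* was at -0.21 in W, -0.33 in X, -0.03 in Y and -0.19 in Z. All 4 mice and the means of all 4 clones were below 0 there, with a mean of -0.19 ± 0.12 and an interval of -0.62 to 0.24, which holds 0. *Col1a1* in muscle averaged -0.20 ± 0.36, with mice W and X below and Y and Z just above 0.

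The remaining fibrillar collagens (*Col2a1*, *Col5a1*, *Col5a2*, *Col5a3*, *Col11a1*, *Col11a2* and *Col27a1*) had means between -0.86 and 0.43 over the organs where they were tested. *Col11a1* in brain was above 0 in all 4 mice (0.05 in W, 0.61 in X, 0.01 in Y, 0.52 in Z), while *Col27a1* in heart was below 0 in all 4 (-0.32 in W, -0.07 in X, -1.37 in Y, -0.04 in Z). In both genes some mice were close to 0, and the spread between mice was of the size of the mean. As a group, the fibrillar collagens had a median of -0.04 over 7 genes in brain, 0.02 over 10 in heart and 0.02 over 9 in muscle.

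**Figure D4:**
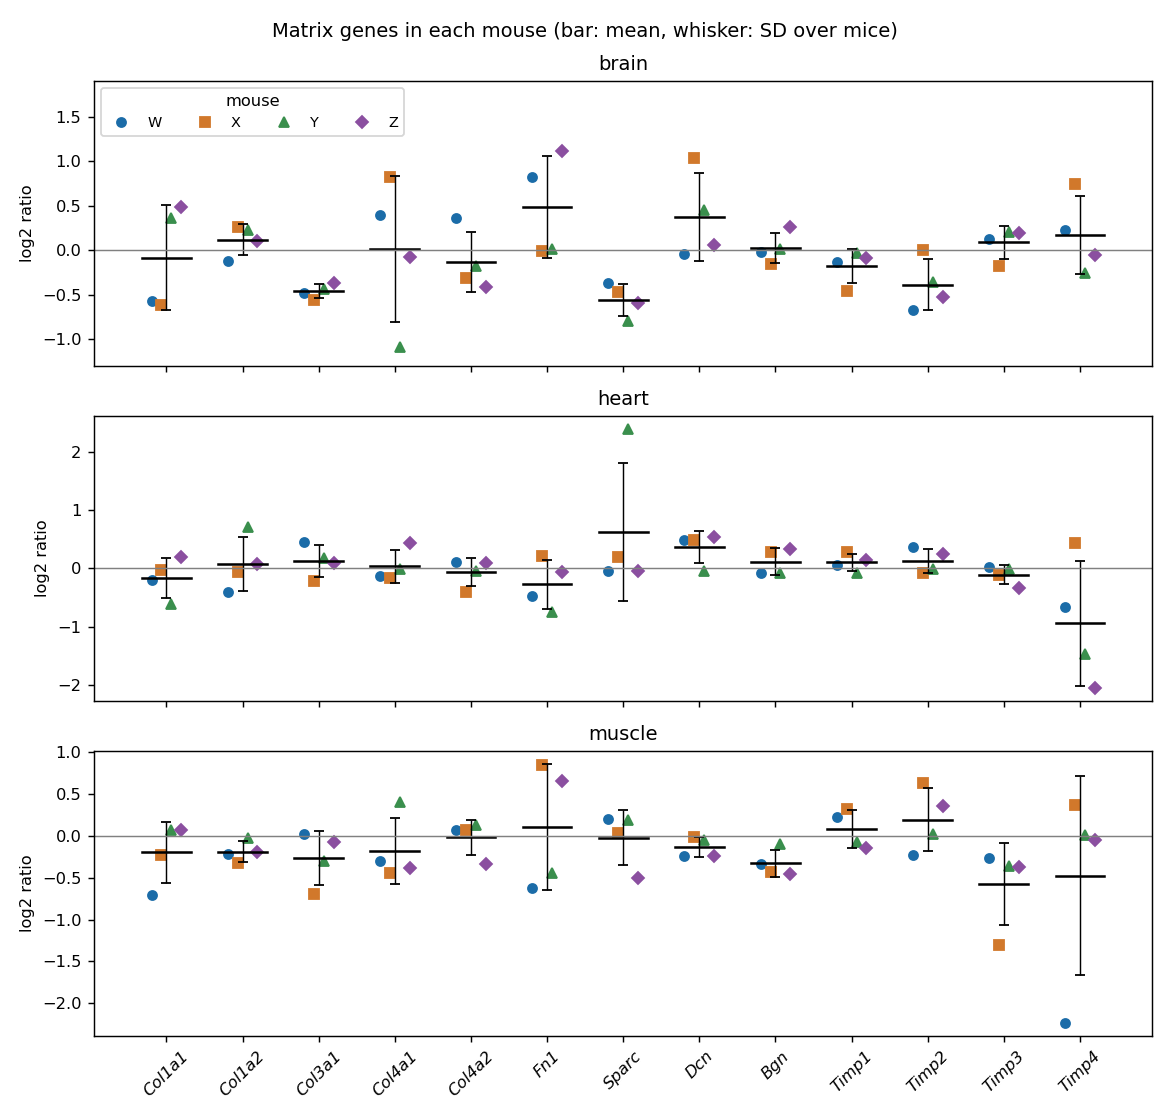
Log2 ratio (y axis, a scale of its own in each organ) of 13 matrix genes in each of the 4 mice, in brain, heart and muscle, with the mean as a bar and the SD over mice as a whisker. *Sparc* and *Col3a1* in brain and *Bgn*, *Dcn*, *Col1a2* and *Timp3* in muscle have all 4 mice below 0, and single mice stand far off in *Sparc* in heart (Y) and *Timp4* in muscle (W).

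Among the small proteoglycans that decorate collagen fibrils, *Bgn* (biglycan) and *Dcn* (decorin) were below 0 in every mouse in muscle. *Bgn* in muscle had -0.34 in W, -0.43 in X, -0.09 in Y and -0.46 in Z. Its mean of -0.33 ± 0.16 (SD, n = 4) rested on 1 clone that was below 0 on 7 of 8 arrays, with an interval of -0.77 to 0.11. *Dcn* in muscle had -0.24 in W, -0.01 in X, -0.05 in Y and -0.24 in Z, a mean of -0.13 ± 0.12. Neither interval excluded 0, and the adjusted p was 0.953 for *Bgn* and 0.963 for *Dcn* (limma).

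In brain and heart *Dcn* was on the other side of 0, with means of 0.37 ± 0.49 and 0.37 ± 0.28 (SD, n = 4). In heart mice W, X and Z were at 0.49, 0.50 and 0.54 and mouse Y at -0.04. The heart mean of *Dcn* came from the arrays with the mutant in Cy3 (0.78, against -0.03 with the mutant in Cy5). *Bgn* averaged 0.02 in brain and 0.11 in heart. The difference of *Dcn* between heart and muscle was 0.50 (limma adjusted p = 0.893) and that of *Bgn* was 0.44 (adjusted p = 0.893).

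Fibronectin (*Fn1*), which links collagen to integrins, and lysyl oxidase (*Lox*), which cross-links collagen and elastin, had mice on both sides of 0 in all 3 organs. *Fn1* averaged 0.48 ± 0.57 in brain, -0.27 ± 0.42 in heart and 0.11 ± 0.75 in muscle, and its clones lay on both sides of 0 in each organ. *Lox* averaged 0.41 ± 0.46 in brain, -0.13 ± 0.28 in heart and 0.01 ± 0.05 in muscle, where the mice ran from -0.02 to 0.08. Periostin (*Postn*) was tested in heart only (-0.03 ± 0.41, n = 3), and elastin (*Eln*) in muscle only (0.20 ± 0.58, n = 4).

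In the basement membrane group, the type IV collagen chains *Col4a1* and *Col4a2* were near the pool. *Col4a1* averaged 0.01 ± 0.82 in brain, 0.03 ± 0.28 in heart and -0.18 ± 0.40 in muscle (SD, n = 4). *Col4a2*, which is paired with *Col4a1* in the same collagen molecule, averaged -0.14 ± 0.34, -0.07 ± 0.24 and -0.02 ± 0.21. In muscle the mouse that stood apart was Y for *Col4a1* (0.41) and Z for *Col4a2* (-0.34). The ratio of *Col4a2* turned with the dye in each organ: with the mutant in Cy5 the means in brain, heart and muscle were 0.58, 0.82 and 0.41, against -0.85, -0.95 and -0.44 on the Cy3 arrays.

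The laminin chains were few and mostly rested on 1 clone. *Lamb2*, a laminin beta chain of vessel and muscle basement membranes, was above 0 in heart in all mice, at 0.52 in W, 0.35 in X, 0.14 in Y and 0.33 in Z, and on 6 of 8 arrays. The mean was 0.33 ± 0.16 (SD, n = 4, interval -0.06 to 0.72), against 0.08 in both brain and muscle. *Lamc1*, the gamma chain of most laminins, was above 0 in the 3 measured mice of muscle (0.71 in X, 0.41 in Y, 0.31 in Z), with mice on both sides of 0 in brain and heart. *Lama1* in brain (-0.19 in X, -1.15 in Y, -1.03 in Z) and *Lamb3* in muscle (-0.92 in X, -1.14 in Y, -0.24 in Z) were below 0 in each of the 3 measured mice and were among the genes with an unadjusted p under 0.05.

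The widest spreads of the group came from single extreme spots. *Nid2* in brain, which links laminin to type IV collagen, ran from -7.39 in Y to 3.14 in Z. *Lamc3* in muscle was at -8.80 in W and between -0.15 and 0.62 in the other mice, and *Lamb1* in muscle was at -6.63 in Z, -0.67 in Y and 0.89 in W. For these genes no direction can be given. Over all member clones, 8 of 895 values in brain, 5 of 934 in heart and 3 of 901 in muscle were beyond 10 in size. *Col18a1*, the source of the fragment endostatin, averaged -0.04 in brain, -0.39 in heart and -0.29 in muscle, with mice on both sides of 0 in each organ. Over the 9 genes tested in each organ the group had its median at 0.01 in brain, at 0.03 in heart and at -0.18 in muscle.

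The other collagens include type VI, which forms beaded filaments around muscle fibres, and membrane-spanning and fibril-associated types. *Col6a1* had -0.87 ± 2.08 in brain, 0.14 ± 0.91 in heart and -0.33 ± 1.51 in muscle (SD, n = 4), so its mice scattered widely. *Col6a2* was steadier, with means of -0.17, 0.16 and -0.11, and its mice also lay on both sides of 0. *Col16a1* in heart was below 0 in all mice (-1.53 in W, -0.35 in X, -0.30 in Y, -0.46 in Z) and on 7 of 8 arrays. Its mean was -0.66 ± 0.58 with an adjusted p of 0.814 (limma), and mouse W stood apart from the others. In brain *Col16a1* averaged -0.33 and in muscle 0.41. The membrane collagen *Col13a1* was above 0 in all mice in muscle, at 0.13 ± 0.07, with mice between 0.04 and 0.20. Its clone was above 0 on only 4 of 8 arrays there, and the interval of -0.29 to 0.55 held 0. In heart it averaged 1.11 ± 1.52, with mice on both sides of 0.

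Among the MMPs, the gelatinase *Mmp2*, which cuts denatured collagen and type IV collagen, was higher in the brain of the 3 mice measured. The values were 1.74 in X, 1.14 in Y and 0.42 in Z, with a mean of 1.10 ± 0.66 (SD, n = 3), a 95% interval of 0.23 to 1.98 and an adjusted p of 0.524 (limma). The single clone averaged 2.48 with the mutant in Cy5 and -0.28 with the mutant in Cy3, so the brain value came from arrays of 1 dye orientation. In muscle *Mmp2* was also above 0 in the 3 measured mice, at 0.30 in X, 0.06 in Y and 0.49 in Z. In heart it averaged 0.02 ± 0.35, with mice on both sides. The difference of 1.08 between brain and heart had an adjusted p of 0.436 (limma).

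The membrane-bound *Mmp14*, which activates *Mmp2*, was above 0 in heart in all mice (0.23 in W, 0.58 in X, 1.28 in Y, 0.04 in Z) and on 6 of 8 arrays, with a mean of 0.53 ± 0.55. It averaged 0.27 in brain and -0.09 in muscle, with mice on both sides of 0. The other gelatinase, *Mmp9*, was below 0 in heart in all mice, at -1.77 in W, -0.22 in X, -0.71 in Y and -0.13 in Z (mean -0.71 ± 0.75), whereas it averaged 0.21 in brain and 0.25 in muscle. The heart value of *Mmp9* turned with the dye, at 0.07 with the mutant in Cy5 and -1.23 with the mutant in Cy3. *Mmp8*, a collagenase of neutrophils, had -1.52 in W, -2.83 in X, 0.34 in Y and -1.50 in Z in heart. Its mean of -1.38 ± 1.30 had an interval of -2.68 to -0.08 and an adjusted p of 0.814 (limma), and came from the arrays with the mutant in Cy3 (-2.73, against -0.03 with the mutant in Cy5).

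In muscle 7 of the 8 MMPs tested had means above 0 (of all symbols there 48.2% were below 0), with a median of 0.29 and a range from -0.09 (*Mmp14*) to 0.59 (*Mmp23*). *Mmp23* had 0.33 in W, 1.13 in X, 0.20 in Y and 0.70 in Z, all above 0, although the clone was above 0 on only 5 of 8 arrays. Its mean came mainly from the arrays with the mutant in Cy3 (1.09, against 0.09 with the mutant in Cy5). *Mmp24* was above 0 on 7 of 8 arrays with a mean of 0.30 ± 0.32. The same group had a median of 0.21 over 9 genes in brain and 0.04 over 10 genes in heart, and no test was run on the group. *Mmp3* was tested in no organ, and *Mmp7* in brain only, at -4.19 in W, -0.54 in X and -1.42 in Z.

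The TIMPs were tested in all organs. In brain *Timp1* and *Timp2*, which inhibit most MMPs, were below 0 in every mouse. *Timp2* had -0.67 in W, a value just under 0 in X, -0.35 in Y and -0.52 in Z, and *Timp1* had -0.13 in W, -0.46 in X, -0.04 in Y and -0.08 in Z. Both genes were below 0 on 7 of 8 arrays and in both of their clones. The means were -0.39 ± 0.29 for *Timp2* (interval -0.83 to 0.05) and -0.18 ± 0.19 for *Timp1* (interval -0.57 to 0.21), with adjusted p of 0.529 and 0.653 (limma). In heart and muscle both genes averaged between 0.08 and 0.20.

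*Timp3*, the inhibitor that is bound to the matrix, was below 0 in muscle in all mice, at -0.26 in W, -1.31 in X, -0.36 in Y and -0.38 in Z. Mouse X stood apart, and the mean was -0.58 ± 0.49 (SD, n = 4, interval -1.21 to 0.05). The means of its 3 tested clones were -0.39, -1.14 and -0.20, and the gene was below 0 on 7 of 8 arrays. In brain and heart *Timp3* averaged 0.09 and -0.10, and the difference between brain and muscle was 0.66 (limma adjusted p = 0.721). *Timp4*, which is best known from heart, had -0.67 in W, 0.43 in X, -1.48 in Y and -2.05 in Z in heart, a mean of -0.94 ± 1.08 with an interval of -2.04 to 0.16. In muscle mouse W was at -2.24 and the other mice lay between -0.05 and 0.37.

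Of the ADAMTS genes, *Adamts18* was below 0 in all measured mice of brain and muscle. In brain it was at -1.09 in W, -0.55 in X, -0.68 in Y and -1.40 in Z, with a mean of -0.93 ± 0.39 (SD, n = 4), an interval of -1.44 to -0.42 and an adjusted p of 0.524 (limma). In muscle it was at -0.93 in W, -0.12 in X and -2.02 in Y (n = 3), and in heart it was not tested. Both means came mainly from the arrays with the mutant in Cy3, with -1.71 in brain and -2.95 in muscle, against -0.16 and 0.91 with the mutant in Cy5. *Adamts18* and *Mmp2* were the 2 matrix genes whose measured mice all lay on one side in at least 2 organs, and both depended on the dye.

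*Adamtsl4* was below 0 in muscle in all mice (-1.41 in W, -0.94 in X, -0.08 in Y, -0.43 in Z), on 7 of 8 arrays and in both clones, with a mean of -0.71 ± 0.58. In brain and heart it averaged 0.003 and -0.04, and its clones lay on both sides. *Adamts16* in muscle averaged 0.50 ± 0.36, with both clones above 0 and mouse Y just under 0, and it came from the arrays with the mutant in Cy3 (0.91, against -0.02 with the mutant in Cy5). The aggrecanase *Adamts5* had mice on both sides of 0 in each organ. *Adamts10* had a single far mouse in brain (W, -2.71) and in heart (X, -3.68).

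The integrin beta 1 chain (*Itgb1*), the common partner of the collagen and laminin receptors, had the most clones on the array (6). It averaged -0.03 ± 0.25 in brain, 0.13 ± 0.13 in heart and -0.08 ± 0.38 in muscle (SD, n = 4). The intervals were -0.45 to 0.39, -0.25 to 0.51 and -0.63 to 0.47, so a change by a factor of 2 lay outside each of them. The muscle laminin receptor chain *Itga7* also had mice on both sides of 0 in each organ, with means of -0.06, -0.05 and 0.06. *Itgb4*, the beta chain that anchors epithelial cells to laminin, was above 0 in heart in all mice, at 1.21 in W, 0.85 in X, 1.29 in Y and 0.09 in Z, and on 7 of 8 arrays. Its mean was 0.86 ± 0.55 with an interval of 0.22 to 1.50 and an adjusted p of 0.814 (limma), and in brain and muscle it averaged -0.03 and 0.02 over 3 mice.

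The integrin chains as a group (13 genes in each organ) had medians of -0.03 in brain and -0.02 in both heart and muscle. *Itgb2* in brain ran from -0.87 to 8.95 and *Itga4* in heart from -2.95 to 2.70, so these leukocyte integrin chains cannot be given a direction. The integrin-binding proteins were set apart from the chains. *Itgb1bp2* (melusin), which is expressed in heart and skeletal muscle, was at 0.64 in W, 0.43 in X, -0.05 in Y and 0.39 in Z in heart. In brain it was at -0.84 in X, -1.32 in Y and -0.53 in Z, all below 0. *Itgb3bp* in muscle was at -0.98 in X, -1.23 in Y and -0.75 in Z, a mean of -0.99 ± 0.24 (SD, n = 3) with an adjusted p of 0.953 (limma). It averaged 0.50 with the mutant in Cy5 and -1.49 with the mutant in Cy3, over all arrays with a value.

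Over the genes with values in all 4 mice, 5 of 47 matrix genes in brain had every mouse below 0 and 1 had every mouse above 0. Over all rows with 4 mice these shares were 14.4% and 10.2%, so the count in brain was not above the background. In heart 3 of 57 were below and 3 above (background 7.67% and 9.19%), and in muscle 5 of 47 were below and 2 above (4.79% and 6.8%). The 5 in muscle were *Adamtsl4*, *Bgn*, *Col1a2*, *Dcn* and *Timp3*, and the 5 in brain were *Adamts18*, *Col3a1*, *Sparc*, *Timp1* and *Timp2*. Over the 33 pairs of a gene and an organ in which every measured mouse (3 or 4) lay on one side, the means of the dye orientations lay on opposite sides of 0 in 6: *Mmp2* in brain, *Mmp9*, *Lamb1* and *Nid2* in heart, and *Adamts18* and *Itgb3bp* in muscle.

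Agreement between dyes and between clones was low for the matrix genes, as for the rest of the array. The mean with the mutant in Cy5 and the mean with the mutant in Cy3 had the same sign for 28 of 62 matrix genes in brain (45.2%, against 47.9% of all symbols), 34 of 70 in heart (48.6% against 41.4%) and 33 of 68 in muscle (48.5% against 41.8%). Of the pairs of clones that represent one matrix gene, 20 of 46 (43.5%) had the same sign in brain, 26 of 56 (46.4%) in heart and 29 of 44 (65.9%) in muscle, against 53.9%, 53.4% and 50.6% of the pairs of all symbols. Pairs of one gene share their mice and arrays, so no test was run on these shares.

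**Figure D5:**
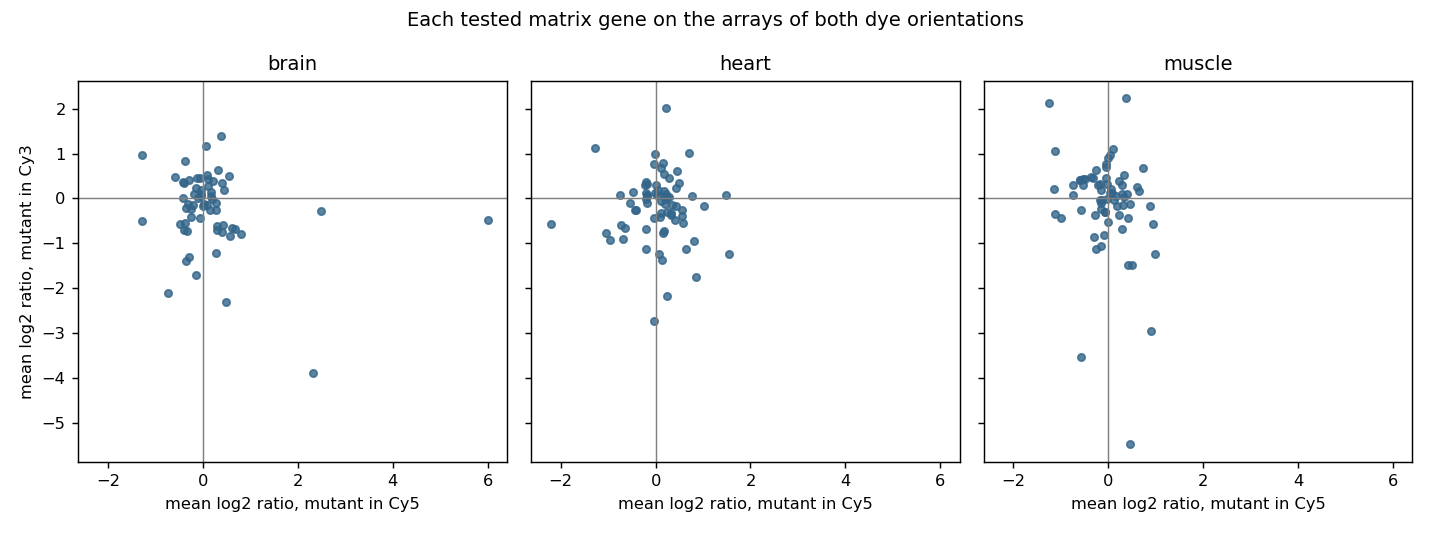
Mean log2 ratio of each tested matrix gene on the arrays with the mutant in Cy5 (x axis) and with the mutant in Cy3 (y axis), 1 point per gene, in brain, heart and muscle. The points fill all 4 quadrants, and 45.2% to 48.6% of them lie in the quadrants where both dyes give the same sign.

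The organs were compared with limma on the mouse means of both organs. Brain and heart had 57 matrix genes in common, brain and muscle 56, and heart and muscle 62, of which 0 passed an adjusted p under 0.10 in each comparison, as did 0% of all rows. The lowest adjusted p values were 0.431, 0.721 and 0.893. At an unadjusted p under 0.05, 3 matrix genes were lower and 2 higher in brain than in heart (background 5.42% and 5.37%). Relative to muscle, 2 were lower and 2 higher in brain (3% and 3.13%), while 3 were lower and 1 higher in heart (2.9% and 1.97%). The farthest apart at that limit between brain and heart was *Itgb1bp2*, with a difference of -1.25, followed by *Mmp2* (1.08), *Lamc3* (0.94), *Col3a1* (-0.59) and *Timp2* (-0.52). With the mouse as a block, because the same animals gave all 3 organs, 0 matrix genes passed in the same comparisons.

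Genes that modify, process or signal to the matrix, from lists chosen outside the symbol rule, gave 0 calls as well. Of the 21 listed genes for collagen and matrix processing 18, 20 and 16 were tested in brain, heart and muscle, with medians of -0.07, 0.03 and 0.10. In brain 2 of them were below 0 in every measured mouse (3 or 4) and 4 above, in heart 2 and 4, and in muscle 0 and 3. Over all rows with 4 mice, 14.4% were below and 10.2% above in every mouse in brain. These background shares were 7.67% and 9.19% in heart, and 4.79% and 6.8% in muscle. They leave out genes with 3 mice, which share a side more easily, so the counts and the shares are not of like sets. The collagen chaperone *Serpinh1* (HSP47) was below 0 in brain in all mice, at -0.10 in W, -0.95 in X, -0.73 in Y and -0.52 in Z. Its mean in brain was -0.57 ± 0.37 (SD, n = 4), while the prolyl isomerase *Ppib* averaged 0.45 ± 0.10 there. The collagen prolyl hydroxylase chain *P4ha1* was above 0 in muscle in all mice, at 2.10 in W, 1.65 in X, 1.13 in Y and 0.68 in Z, a mean of 1.39 ± 0.62 with an adjusted p of 0.953 (limma). The collagen hydroxylases did not move together. In heart *P3h1* (1.07 ± 0.52), *Plod1* (0.51 ± 0.21) and *P4ha2* (0.17 ± 0.09) had all 4 mice above 0 and *P4ha1* had 3 of 4. There *P4ha3* averaged -0.35, with 3 of 4 mice below 0, and *P3h2* averaged 0.03 with mice on both sides. In muscle *Plod1* averaged -0.60, *P4ha3* -0.10, *P3h2* 0.08 and *P4ha2* 0.11, and in brain the means of these genes ran from -0.79 (*P3h1*) to 0.75 (*Plod1*).

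Of 40 other matrix proteins 31, 34 and 32 were tested in brain, heart and muscle, with medians of 0.10, -0.16 and -0.14. In brain 21 of the 31 had means above 0 and 10 below, whereas in heart 24 of 34 and in muscle 20 of 32 were below. Of all symbols, 55.1%, 46.3% and 48.2% were below 0 in brain, heart and muscle. Every measured mouse (3 or 4) was below 0 in brain in 6 of these genes and above 0 in 3. Over all rows with 4 mice, 14.4% were below and 10.2% above in every mouse. Genes with 3 mice share a side more easily, so these shares are not for a like set. The 6 genes below included asporin (*Aspn*, -0.67 ± 0.22) and thrombospondin 4 (*Thbs4*, -0.94 ± 0.29, n = 3), which had an unadjusted p under 0.05. Matrix Gla protein (*Mgp*, 0.31 ± 0.13) was above 0 in all 4 mice. The 17 genes of the TGF-beta pathway, which drives collagen expression in many cells, had medians of -0.13, -0.02 and -0.02 over 14, 16 and 15 tested genes. The lists of other integrin chains and matrix receptors had medians of -0.12, 0.03 and 0.05, and that of other proteases and inhibitors -0.12, 0.07 and 0.02.

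Cell type markers were read in the same way, because a whole organ holds several cell types. The fibroblast markers had medians of 0.32, 0.18 and -0.25 in brain, heart and muscle over 7 genes each, the endothelial markers -0.19, -0.17 and 0.02 over 9, 11 and 9, and 0 genes of either list passed. The fibroblast list, which holds *Thy1* and *Pdgfra*, was the same in every organ. Whether its genes mark fibroblasts in brain was not tested. In brain, where *Sparc* is known from astrocytes and vessels, 5 of 6 astrocyte markers and 7 of 9 endothelial markers had means below 0, but so had 3 of 3 neuron markers, 3 of 3 of smooth muscle and pericytes and 4 of 5 of macrophages and microglia, against 55.1% of all symbols. For the fibroblast list 2 of 7 means in brain were below 0, and for heart muscle genes 2 of 4. For skeletal muscle genes 3 of 3 were below 0 there, and for red cells 2 of 3. The red cell markers differed among themselves in brain, where *Hba-a1* (haemoglobin) was below 0 in all mice (-0.57 in W, -1.04 in X, -0.79 in Y, -1.61 in Z), *Alas2* averaged -0.06 and *Slc4a1* 0.39, both with mice on either side. In heart *Hba-a1* averaged -0.56 and *Alas2* -0.50, with all 4 mice below 0 in both, whereas *Slc4a1* was near 0 with 3 of 4 mice above. The part of these cells in the values of the matrix genes was not tested.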

How the data were processed

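Brain, heart and muscle of 4 mutant mice were measured on 24 cDNA arrays. The authors scanned the slides, normalized them with MIDAS (method not given in the sources) and deposited log2 ratios of 20794 clones, which were used as deposited. Swapped arrays were taken as already turned, because values beyond 10 lie above 0 with the mutant in Cy5 and below 0 with the mutant in Cy3. The sources do not state this, and the signs of these values alone do not settle it. Results with swapped arrays turned are given below as an alternative. No signal over background accompanies the values, so precision is limited by the number of arrays. The platform annotation named 12771 clones, and gene identifiers of all 81 members matched RefSeq.

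The arrays of a mouse were averaged (both required), then the clones of a symbol with values in at least 3 mice. Clones without a symbol were rows of their own. Means were tested against 0 per organ with limma 3.58.1 in R 4.3.3 (intercept, eBayes, Benjamini-Hochberg over all rows), called at an adjusted p under 0.10, the limit on false positives in the methods. SAM used all 16 sign flips. Programs were tested on simulated data. The members and lists were chosen with earlier results of these data known. Named genes were the 5 with the lowest p per organ, genes on one side in at least 2 organs, 25 chosen matrix genes and genes whose clones disagreed. Others were named after their values were seen.

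The same animals gave all organs, which pairs the samples by animal. Over all rows, the departures of each mouse from the mean of its organ correlated between organs by -0.01 to 0.03. Alternatives were other clone averages, centring, scaling, missing value rules, single dyes, turned swapped arrays, single arrays, a random block, robust eBayes, SAM, a threshold of 0.05 and leaving out each mouse. Figures were drawn with matplotlib.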

Additional observations from a re-analysis of the deposited data

Results flagged for a closer look

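Of 96 pairs of a named gene and an organ with values in 4 mice, 11 had 1 mouse far from the others by Dixon's criterion, which chance gives in about 1 of 20 groups. In brain these were mouse W in *Adamts10* (-2.71) and mouse X in *Mmp9* (0.84). In heart they were mouse W in *Adamtsl4* (0.14) and in *Col16a1* (-1.53), and mouse Y in *Dcn* (-0.044) and in *Sparc* (2.40). In muscle they were mouse W in *Col2a1* (-2.15) and *Timp4* (-2.24), mouse X in *Timp3* (-1.31), mouse Y in *Col4a1* (0.41) and mouse Z in *Col4a2* (-0.34). Of these, the value of *Sparc* rested on 1 spot beyond 10. Each of the 4 mice was the far one in at least 1 gene, with W in 5 of the 11.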

How the results depend on the processing

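The count of matrix genes called by limma was 0 in each organ and between organs under every alternative run, SAM included, and with the mouse as a replicate block it was 0 in the comparisons between organs. With each mouse left out in turn it was also 0. At an unadjusted p under 0.05, an alternative added after the data were seen, the counts ranged from 3 to 12 in brain, 0 to 6 in heart and 2 to 5 in muscle. The shares over all rows under the same settings are not given here, so these ranges have no background beside them. The median ratio of the matrix genes in brain (-0.03) was 0.0573 on the arrays with the mutant in Cy5, -0.121 with the mutant in Cy3, 0.0594 with the swapped arrays turned, and -0.0666 to 0.0413 with each mouse left out (the highest without mouse W). In heart (0.02) it was 0.151 with Cy5 and -0.111 with Cy3. With a mouse left out it was -0.0221 to 0.0340, below 0 without Y (just under 0) and without Z (-0.0221). In muscle (0.02) it ranged from -0.06 to 0.0693 over all alternatives and from -0.06 to 0.0353 with a mouse left out, below 0 without X (just under 0) and without Z (-0.06). In each organ the sign of the median thus depended on the setting. The genes with a mean below 0 numbered 27 to 41 in brain (35 as reported), 26 to 42 in heart (33) and 23 to 41 in muscle (33), with different numbers of genes tested. The genes on one side of 0 in every mouse numbered 6 in brain, 18 with each clone as a row, 10 with clones on all 8 arrays, and 9 to 17 with a mouse left out. In heart they numbered 6, 10 with each clone as a row, 11 with 1 array of a mouse enough, 14 with Cy5, 14 with Cy3, 11 with swapped arrays turned, and 14 to 18 with a mouse left out. In muscle they numbered 7, 11 with 1 array enough, and 11 to 17 with a mouse left out. With a mouse left out fewer mice must share a side, so these counts rise by construction. With each clone as a row the count is of clones, of which 95 were tested in brain and 107 in heart, against 62 and 70 genes. For the other settings the cause was not tested. The shares over all rows under these alternatives are not given here, so whether a count lies above the background cannot be told. Of the 111 values of named genes, 35 changed sign with Cy5 only, 27 with Cy3 only, 65 with swapped arrays turned and 0 with arrays centred on their medians.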
